A study of Homo sapiens with 72 samples.

Results

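The comparison described here is that of directly irradiated cells with time-matched sham-irradiated controls at 6 h after exposure, across all genes of the array. Its members were taken from the sample titles, as the arrays labelled irradiated at 6 h in experiments 1 to 4 and the arrays labelled control at 6 h in the same experiments, which gave 8 of the 72 arrays of the series. The 4 arrays of bystander cells at 6 h shared the fit, which therefore held 12 arrays. The study followed gene expression in IMR-90 cells, early passage fibroblasts of a long-established cell strain from normal human lung, over 24 h after α-particle exposure. The irradiated group grew on the thin Mylar base of an outer dish and received 50 cGy of 4He ions at 125 keV per µm. The bystander group grew on an inner base of the same dish that stopped the particles. The control group was sham-irradiated, and cells of all 3 groups formed a contiguous layer in the same medium. The irradiated, bystander and control dishes of each of the 4 independent experiments came from a single pool of cells, so that the experiments are repeats of a single cell line and not of donors, and each irradiated array was compared with the control of its own experiment.

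An α-particle deposits dense ionisation along a short track, so that a cell that is crossed receives clustered DNA breaks while its neighbours receive none. Broken DNA activates the kinase ATM and the transcription factor p53, which switches on genes of cell cycle arrest, repair and death receptor signalling. Stressed fibroblasts also switch on NF-kB and AP-1 target genes, among them secreted cytokines, chemokines and matrix-degrading enzymes that act on neighbouring cells.

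Signals are given as log2 intensities after each array was scaled to the same 75th percentile, 10.12 on the log2 scale, and the unit of every ratio is log2 of irradiated over control. Before scaling, the 75th percentile ran from 9.49 to 9.90 on the irradiated arrays and from 9.50 to 10.44 on the controls. The irradiated array minus its control gave -0.669, -0.00831, -0.221 and -0.541 in experiments 1 to 4, so that the irradiated arrays were the dimmer ones in experiments 1, 3 and 4. Between 66.98% and 70.96% of the spots were well above background on irradiated arrays and between 68.01% and 72.43% on controls. The 12 arrays lay on 3 slides, and each slide held at least 1 irradiated and at least 1 control array. The irradiated arrays of experiments 1 and 2, which lay on different slides, were closer to each other than any of the other 17 pairs of arrays of a group at 6 h. Their median absolute log2 difference was 0.128, against 0.306 to 0.466 for those other pairs and 0.0662 to 0.0853 for repeated spots of a probe on 1 array. Arrays of experiments 1 and 2 of a group at other times differed by 0.125 to 0.363, and of all 108 pairs of a group in the series 1 was closer than the irradiated pair at 6 h. Repeated spots leave out the noise of labelling and hybridisation, so whether the arrays came from separate dishes was not tested. Both arrays were kept as the labels give them, so that n = 4 experiments rests on the labels, and the counts are also given with experiments 1 and 2 averaged into 1.

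All 15 fibroblast markers passed the filter on dim probes, COL1A2 was the brightest, and their summed log2 signal lay between 19.51 and 20.35 on irradiated arrays and between 20.03 and 20.66 on controls. Of 11 epithelial markers 7 passed the filter on dim probes, and of 8 endothelial markers 5 did, so that these lists were not absent as a whole. Of 14 leukocyte markers 4 passed, and PTPRC, CD163, CD3D, MS4A1, FCGR3A, LYZ and CD53 were above background on no array. The endothelial markers PECAM1, CDH5 and TIE1 and the epithelial markers CDH1 and KRT5 were likewise above background on none, while KRT18 and TEK were the brightest of these lists. The 7 smooth muscle markers were all measured, with ACTG2 as the brightest, and their summed signal ran from 15.59 to 17.52 after irradiation and from 16.65 to 16.98 in controls. In such bulk RNA, fewer cells of a type and less RNA per cell cannot be told apart.

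After 6 h, 1233 of 25246 probes were higher in irradiated cells (4.88%) and 1422 were lower (5.63%) at a limma adjusted p below 0.10. With 1 probe for each gene, 733 of 13017 genes were higher (5.63%) and 790 were lower (6.07%). Among the genes that were higher the median ratio was 0.80, with 217 above 1 and 24 above 2, and among those that were lower it was -0.81, with 231 below -1 and 12 below -2. The 3 largest increases with the same sign in 4 of 4 experiments were those of the chemokine CXCL8, the protease MMP3 and the junction protein CLDN1, and the 3 largest decreases those of the channel KCNK3, the receptor TAAR5 and the SMAD anchor ZFYVE9. The median over all genes tested was 0.01. The split of the calls depends on the scaling. Without it, 284 probes were higher and 4161 lower, and the median over all probes moved from 0.02 to -0.34, so each ratio given below is relative to the scaled median, and a ratio without scaling is about 0.36 lower.

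**Figure D1:**
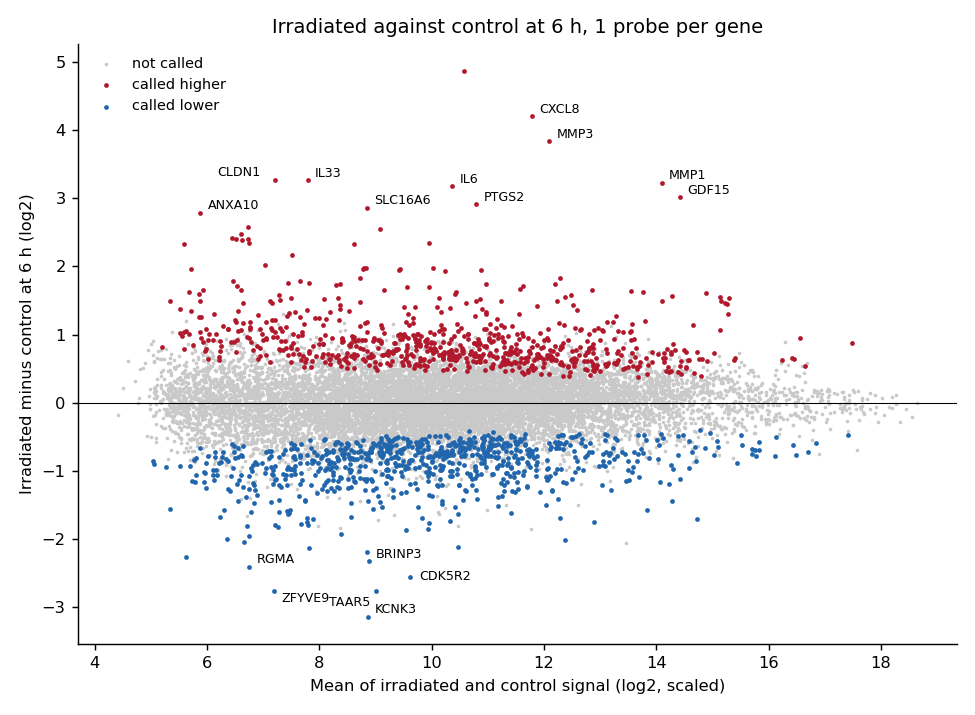
Ratio of irradiated to control signal at 6 h (vertical axis, log2) against the mean scaled signal of both groups (horizontal axis, log2) for 1 probe of each gene, with genes called at a limma adjusted p below 0.10 in red (higher) and blue (lower). The upper tail reaches further, with CXCL8 at 4.20, MMP3 at 3.83 and, unlabelled at the top, SERPINB2 at 4.86, than the lower tail, in which KCNK3 lies at -3.14.

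Over all genes tested 15.6% were higher in 4 of 4 experiments and 15.3% were lower in 4 of 4. Of the genes called higher 678 of 733 were higher in 4 of 4 experiments, and of those called lower 738 of 790 were lower in 4 of 4, counts that the call, made on the same arrays, largely sets. The signals of the 2 groups did not overlap at all for 315 of the genes called higher and 308 of those called lower, against 641 higher (4.92%) and 535 lower (4.11%) among all genes. Over the genes called higher the median ratio was 0.87, 0.58, 0.51 and 1.25 in experiments 1 to 4, and over those called lower it was -0.74, -0.49, -0.67 and -1.37. The median absolute ratio over all genes was 0.38, 0.24, 0.33 and 0.53, so it too was larger in experiments 1 and 4. Experiments 1 and 4, in which the control array was brightest relative to the irradiated array, gave both of the larger ratios in 54.8% of the genes called higher and in 44.3% of those called lower. The same share over all genes was not counted, and the part of brightness in these ratios was not tested. The count of probes called fell from 2655 to 208 without experiment 4, to 788 without experiment 1 and to 1269 without experiment 2, and to 1376 with experiments 1 and 2 averaged. It was 326 with the 8 irradiated and control arrays alone. Slide 1 held irradiated array 1 with controls 1 and 2, slide 2 irradiated arrays 2 and 3 with control 3, and slide 3 both arrays of experiment 4. Values within slides 1 and 2 therefore mix experiments and do not keep the pairing. Of all genes 28.1% were higher within each of the 3 slides and 27.3% were lower within each. The same held for 733 of the 733 genes called higher and for 784 of the 790 called lower, again counts from the arrays that made the calls. With the slide as a further block 2312 probes were called, and with the slide as a random block 2221.

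Among targets of p53 that act in arrest and repair, 14 of 30 genes were higher and none was lower, and the median ratio was 0.80. Counts of this and later lists stand beside 5.63% of all genes called higher and 6.07% called lower. GDF15, a secreted stress cytokine, had signals of 16.58, 16.11, 15.59 and 15.46 in irradiated cells of experiments 1 to 4, against 12.23, 12.38, 13.87 and 13.19 in controls. All irradiated arrays lay above all controls, and the ratio was 3.02 ± 0.54 (SE, n = 4 experiments, limma adjusted p = 0.0228), or 8.09-fold. This SE and those of the other ratios to control come from the fit of 12 arrays, bystander arrays included. They do not measure the spread of the 4 ratios alone. GADD45A, which binds PCNA and halts growth after DNA damage, gave 13.26, 13.11, 13.02 and 12.93 against 11.36, 11.33, 11.37 and 11.28. The values of each group lay close together and the groups did not overlap, at a ratio of 1.75 ± 0.15 (SE, limma adjusted p = 0.00137). CDKN1A encodes p21, the inhibitor that holds cyclin-dependent kinases in check, and its signals were 14.96, 14.72, 15.07 and 14.66 after irradiation and 13.28, 12.28, 13.95 and 13.94 in controls. Again the groups did not overlap, and the ratio was 1.49 ± 0.28 (SE, limma adjusted p = 0.0284), which passed in each fit with an experiment left out except that without experiment 1.

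PLK3, a stress kinase, was higher by 1.67 and FDXR, which passes electrons to mitochondrial P450 enzymes, by 1.56. DDB2, which finds ultraviolet lesions for excision repair, was higher by 1.49, TIGAR, which diverts glucose to the pentose phosphate pathway, by 1.23, and the lesion-bypass polymerase POLH by 1.13. TNFRSF10D, a decoy receptor, was higher by 1.07 and RRM2B, a ribonucleotide reductase subunit, by 1.03. PCNA, the replication clamp, had a ratio of 0.91, MDM2, the ligase that degrades p53, 0.89, the helicase subunit ASCC3 0.81 and FBXO22 0.78. The list had a median ratio of 0.44 without scaling, with 8 members higher and 1 lower, and 10 to 13 members were higher when an experiment was left out.

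Of 18 p53 targets that act in cell death, 9 were higher and none was lower, with a median of 0.48. The receptors for TRAIL and Fas ligand made up the top of the list. FAS gave 10.43, 10.33, 10.06 and 10.38 in irradiated cells against 9.28, 8.93, 9.07 and 8.94 in controls. The groups were clear of each other, at a ratio of 1.25 ± 0.15 (SE, limma adjusted p = 0.00573). The TRAIL receptor TNFRSF10B, at 13.79, 13.69, 13.91 and 13.99 against 12.68, 12.37, 13.19 and 12.92, was higher by 1.06 ± 0.15 (SE, limma adjusted p = 0.00898). The second signalling receptor, TNFRSF10A, was higher by 1.97 and the decoy TNFRSF10C by 2.02, whereas their ligand TNFSF10 (TRAIL) was lower by the same fit, at -1.67 ± 0.40 (SE, limma adjusted p = 0.0525). STEAP3, PIDD1, PMAIP1 (Noxa), AEN and TRIAP1 had ratios of 1.01, 0.93, 0.90, 0.80 and 0.65. Without experiment 4 the count of the list was 4, and without scaling 4 members were higher and 1 was lower, with a median of 0.12.

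Of 12 chemokines tested 5 were higher and 2 were lower. Without scaling 5 were higher and 4 lower, and the median of the list turned from 0.17 to -0.19. The 5 higher members with scaling were all neutrophil attractants of the CXC family. CXCL8 (interleukin 8) had the largest ratio of any gene with a value in every experiment, with signals of 14.60, 14.86, 11.96 and 14.14 in irradiated cells against 8.39, 9.12, 9.70 and 11.55 in controls. The lowest irradiated array, that of experiment 3, still lay above the highest control. The ratio was 4.20 ± 0.64 (SE, limma adjusted p = 0.0126), or 18.4-fold. Within slides 1 to 3, which do not keep the pairing of experiments 1 to 3, the ratio was 5.85, 3.71 and 2.60. CXCL3 was higher by 1.93, CXCL5 by 1.83, CXCL1 by 1.55 and CXCL2 by 1.52, and of these CXCL5 alone had groups that did not overlap. These genes lie in a cluster on chromosome 4 and are close in sequence, so that their probes may share targets. The 2 members that were lower were CXCL12, which attracts lymphocytes and progenitor cells, at -0.93 and CX3CL1 (fractalkine) at -0.82. When experiment 4 was left out neither was called lower, and without experiment 1 the count of higher members was 3.

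The promoters of the 3 closest of these chemokines are shown because their genes were higher together, and those of IL6 and MMP10 as examples of a cytokine and a protease gene that was higher and holds a match to the NF-kB or the AP-1 motif. Each line gives 150 bases that end at the start site in RefSeq (GRCh38.p14), 5′ to 3′ along the gene. Capitals mark the NF-kB motif in the first 4 and the AP-1 motif TGANTCA in MMP10, and in CXCL1, CXCL2 and CXCL3 a pair of overlapping matches make up the marked run. CXCL1 is at chr4:73869243-73869392 on the plus strand, CXCL2 at chr4:74099196-74099345 and CXCL3 at chr4:74038690-74038839 on the minus strand, IL6 at chr7:22727050-22727199 on the plus strand and MMP10 at chr11:102780629-102780778 on the minus strand.
CXCL1: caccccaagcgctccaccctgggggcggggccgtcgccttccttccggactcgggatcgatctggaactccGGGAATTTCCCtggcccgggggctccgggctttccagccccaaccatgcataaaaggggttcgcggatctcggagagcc
CXCL2: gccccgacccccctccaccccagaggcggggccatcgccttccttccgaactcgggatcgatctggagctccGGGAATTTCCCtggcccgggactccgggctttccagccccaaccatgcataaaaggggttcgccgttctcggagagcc
CXCL3: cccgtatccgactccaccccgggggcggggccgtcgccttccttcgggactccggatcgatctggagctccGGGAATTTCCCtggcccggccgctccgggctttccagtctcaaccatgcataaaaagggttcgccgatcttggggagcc
IL6: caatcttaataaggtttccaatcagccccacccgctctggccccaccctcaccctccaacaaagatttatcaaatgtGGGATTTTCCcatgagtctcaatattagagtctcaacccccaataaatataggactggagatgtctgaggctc
MMP10: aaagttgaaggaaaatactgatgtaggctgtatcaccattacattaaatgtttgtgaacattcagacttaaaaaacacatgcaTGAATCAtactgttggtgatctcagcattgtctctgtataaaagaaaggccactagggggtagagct

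In the 3 chemokines the marked run begins 78 or 79 bases before the start, in IL6 it begins 73 bases before and in MMP10 67 bases before. Over windows from 250 bases before to 50 bases after the start, read on both strands, the NF-kB motif was found in 5 of the 8 chemokine promoters in the table and in 4 of 10 interleukin promoters. It was found in 5.72% of all promoters, 6.66% of those of genes tested, 6.95% of those of genes called higher and 5.56% of those called lower. The AP-1 motif was found in 1 of 7 promoters of matrix metalloproteinases and their inhibitors, and in 7.76% of all promoters. A match of letters is a description of the sequence and no measure of binding.

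Interleukins and related cytokines had a median ratio of 1.17, with 10 of 15 higher and 2 lower. IL6, the main acute-phase cytokine, had signals of 12.61, 12.57, 10.85 and 11.80 in irradiated cells against 7.68, 7.97, 9.37 and 10.11 in controls. All irradiated arrays were above all controls, and the ratio was 3.17 ± 0.67 (SE, limma adjusted p = 0.0375), with 4.92 and 4.60 in experiments 1 and 2 and 1.48 and 1.68 in experiments 3 and 4. IL33, a nuclear alarmin, gave 10.21, 10.27, 7.47 and 9.76 against 6.38, 6.55, 5.46 and 6.26, which do not overlap, at a ratio of 3.26 ± 0.33 (SE, limma adjusted p = 0.00442). IL1B, IL11, IL12A, LIF, IL1A, TSLP, IL23A and IL32 had ratios of 1.74, 1.63, 1.59, 1.57, 1.26, 1.17, 1.09 and 0.59. The members that were lower were the TRAIL gene TNFSF10 and IL7, a lymphocyte growth factor, at -1.20. Without experiment 1 the list had 4 higher members and IL6 and IL1B did not pass, and without experiment 4 it had 6.

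Of 22 subunits and feedback genes of the NF-kB pathway 5 were higher and 1 was lower. Their median of 0.26 turned to -0.10 without scaling, where 2 were higher and 2 lower. BIRC3, an inhibitor of apoptosis, was higher by 1.46, the nuclear regulator NFKBIZ by 1.00, the subunit RELB by 0.93, TNFAIP2 by 0.75 and the kinase RIPK2 by 0.63. The subunit RELA was lower at -0.56 ± 0.15 (SE, limma adjusted p = 0.0688), a call lost with any 1 experiment left out. NFKB1 and REL did not pass, at 0.07 and -0.35. Without experiment 4 none of the list was called, and without experiment 1 a single member was.

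Of 18 inflammatory effectors 8 were higher and none was lower, with a median of 0.50. PTGS2, the inducible cyclooxygenase, gave 12.58, 12.82, 12.36 and 11.24 against 8.83, 8.58, 10.65 and 9.29. The groups did not overlap, at a ratio of 2.91 ± 0.48 (SE, limma adjusted p = 0.0158), and its second probe gave 3.27. SERPINB2, an inhibitor of plasminogen activators, was read on 3 irradiated arrays because the spot of experiment 2 was not uniform. Its signals were 14.35, 10.75 and 13.58 in experiments 1, 3 and 4, against 6.97, 7.65, 7.98 and 10.49 in the 4 controls, and the fit, which dropped the missing value, gave 4.86 ± 0.96 (SE, limma adjusted p = 0.0391). HSD11B1, which reactivates cortisol, was higher by 1.70, NAMPT by 1.18, the urokinase receptor PLAUR by 1.08, the adhesion molecule ICAM1 by 0.79, SOD2 by 0.74 and PLAU by 0.66. Without experiment 4 the count of the list was 3, and without scaling 4 members were higher and 2 lower, with a median of 0.14.

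Of 22 interferon response genes none was higher and 3 were lower, namely ISG15 at -1.12, the GTPase MX2 at -0.73 and GBP2 at -0.57, and the list had a median of -0.42. MX2 signals of 5.98, 6.15, 5.76 and 5.84 in irradiated cells lay below all of the controls, at 6.61, 6.59, 6.66 and 6.77. Each of the 3 genes lost its call when experiment 1 or experiment 4 was left out. None of the list was called with experiments 1 and 2 averaged, and 11 were lower without scaling.

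Matrix-degrading enzymes and their inhibitors divided into both directions, with 3 of 18 higher and 4 lower. The 3 were the interstitial collagenase MMP1 and the stromelysins MMP3 and MMP10, neighbours on chromosome 11. MMP1 had signals of 16.80, 16.77, 14.02 and 15.25 in irradiated cells against 12.20, 12.81, 12.51 and 12.42 in controls. The controls were close to each other, all irradiated arrays lay above them, and the ratio was 3.23 ± 0.47 (SE, limma adjusted p = 0.01), or 9.36-fold. MMP3 gave 15.20, 15.43, 11.22 and 14.20 against 9.78, 10.51, 9.18 and 11.24, and here the lowest irradiated array lay just below the highest control, at a ratio of 3.83 ± 0.59 (SE, limma adjusted p = 0.0131). MMP10 was higher by 1.96, without overlap. The 4 lower members were the membrane-bound MMP14 at -1.18, the gelatinase MMP2 at -0.99, MMP11 at -0.92 and the inhibitor TIMP3 at -0.65. The count of higher members was 3 in each fit with an experiment left out, whereas the count of lower members was 0 without experiment 4 and 1 without experiment 1 or 2.

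**Figure D2:**
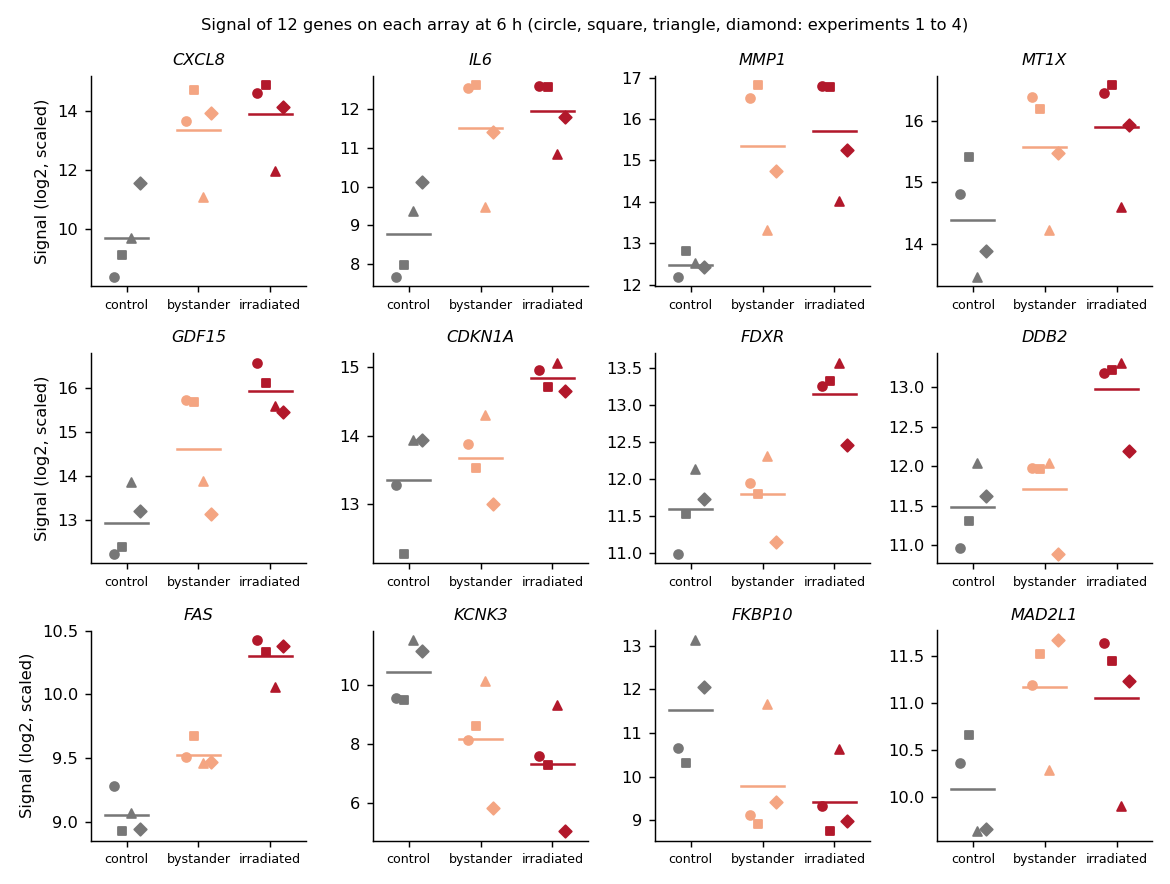
Scaled log2 signal (vertical axes) of 12 genes on each of the 12 arrays at 6 h, for control, bystander and irradiated cells, with horizontal bars at the group means and symbol shapes for experiments 1 to 4. For CXCL8, IL6 and MMP1 the bystander arrays lie near the irradiated ones, whereas for FDXR and DDB2 the means of the bystander arrays lie close to those of the controls.

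Of 34 collagens and other structural matrix genes 3 were lower and 2 were higher, beside 6.07% and 5.63% of all genes, and the median was -0.20. Without scaling 13 were lower and none was higher, with a median of -0.56, and without experiment 1 or 4 a single member was lower. FKBP10, a chaperone of collagen folding in the endoplasmic reticulum, had signals of 9.32, 8.75, 10.63 and 8.97 after irradiation and 10.65, 10.31, 13.13 and 12.05 in controls. The irradiated array of experiment 3 overlapped the controls, but within each experiment the irradiated cells were lower, at a ratio of -2.12 ± 0.27 (SE, limma adjusted p = 0.00577). COL5A1 was lower at -0.75 and FBLN1 at -0.62, and the crosslinking enzymes LOX and PLOD2 were higher by 0.71 and 0.73. Without experiment 2 or 4 no member of this list was higher, and without experiment 3 a single member was. Of 18 contractile genes none was higher and 2 were lower, FLNA at -0.93 and DES at -0.90. The medians of this list in experiments 1 to 4 were 0.08, 0.44, -1.17 and -0.19, so that experiment 3 stood apart. Without experiment 3 its median was 0.07, with 1 member higher, none was lower without experiment 1, 3 or 4, and 8 were lower without scaling. Among the 15 fibroblast markers PDGFRB was lower at -0.94 and FAP higher by 0.81. Without scaling 5 of them were lower and none was higher, with a median of -0.57 in place of -0.21, and without experiment 4 none was called.

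Metallothioneins, small cysteine-rich proteins that bind zinc and copper, were the list with the highest median, at 1.45. With the zinc exporter SLC30A1, 11 of 13 genes were higher and none was lower, and 9 to 10 were higher when an experiment was left out. MT1X gave 16.45, 16.58, 14.61 and 15.93 in irradiated cells against 14.82, 15.41, 13.47 and 13.88 in controls. The groups overlapped because the level differed between experiments, while the ratio within experiments was 1.64, 1.16, 1.14 and 2.05 and its fitted value 1.50 ± 0.18 (SE, limma adjusted p = 0.00566). MT1B, MT1F, MT1E, MT1G, MT1L, MT1H, MT1M and MT1A had ratios from 1.30 to 1.61, MT2A 0.87 and SLC30A1 0.70. The genes of the MT1 group lie side by side on chromosome 16 and are nearly identical in sequence, so that the probes are not separate measurements of each gene. MT3, at -0.94 with 1 control value missing, did not pass. Without the replicate block none of the list passed.

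The promoter of MT2A is shown with capitals at the matches to the core of the metal response element, TGCNCNC, on either strand. It is at chr16:56608434-56608583 on the plus strand (GRCh38.p14).
MT2A: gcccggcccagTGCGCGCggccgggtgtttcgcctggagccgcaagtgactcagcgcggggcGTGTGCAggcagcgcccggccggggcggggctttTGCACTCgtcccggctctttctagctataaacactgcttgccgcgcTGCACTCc
The 4 marked matches begin 139, 88, 54 and 8 bases before the start, and 8 are found in the whole window. All 6 promoters found for the list of metallothioneins and the zinc exporter hold this core, as do 55.2% of all promoters and 62.0% of those of genes called higher. The presence of the core alone thus does not set the list apart.

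Other stress lists had fewer calls. Of 17 heat shock genes 7 were higher and none was lower, led by HSPA1A at 1.16 and DNAJB4 at 0.94, with HSPD1, HSPA4, HSPE1, HSPH1 and HSPA9 between 0.45 and 0.65. The count was 1 without experiment 1, 2 or 4 and 2 without experiment 3, it was 0 with the 8 irradiated and control arrays alone, and without scaling none was higher and 1 was lower. Of 22 genes of ATF4 and the unfolded protein response 5 were higher and none was lower, among them the cystine carrier SLC7A11 at 1.16, PPP1R15A (GADD34) at 0.93, CHAC1 at 0.90, CALR at 0.73 and HERPUD1 at 0.60. Of 21 oxidative stress genes 4 were higher, TXNRD1 at 0.96, SRXN1 at 0.79 and the already named SLC7A11 and SOD2, and 1 was lower. The medians of the 3 lists were 0.44, 0.31 and 0.48, and that of the ATF4 list turned to -0.05 without scaling. Without experiment 4 none of the ATF4 list and 1 of the oxidative stress list was higher.

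Among 27 growth factors 6 were higher and 1 was lower, with a median of 0.50. BMP2, a bone morphogenetic protein, had a ratio of 2.33 ± 0.43 (SE, limma adjusted p = 0.026) and did not overlap the controls. INHBA, the activin subunit, was higher by 1.64, HBEGF by 1.50, FGF2 by 1.43, FGF1 by 1.18 and PDGFC by 0.82, and TGFB3 was lower at -1.24. Of 30 immediate early genes 6 were higher and 1 was lower. ATF3, a stress-induced bZIP factor, rose by 1.33 ± 0.20 (SE, limma adjusted p = 0.0114), KLF2 by 1.47, FOSB by 1.07, FOSL1 by 0.89, CCN2 by 0.77 and MAFF by 0.65, and FOSL2 was lower at -0.74. The median of this list, 0.21, turned to -0.15 without scaling. Of 14 MAPK phosphatases and Sprouty genes DUSP2, DUSP5 and SPRY2 were higher, by 1.17, 1.13 and 0.95, and SPRY1 was lower at -1.07, with a median of 0.29 that turned to -0.07 without scaling. Without experiment 4 the higher counts of these 3 lists were 3, 2 and 1. Without scaling 4 growth factors were higher and 4 lower, 2 immediate early genes were higher and 3 lower, and 1 gene of the MAPK list was higher and 2 were lower.

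Regulators of development were called in both directions, beside 5.63% of all genes called higher and 6.07% called lower. Of 19 genes of TGF-beta and BMP signalling 2 were higher and 2 were lower. Among them SKIL, a repressor of SMAD signalling, was higher by 0.59, and the co-receptor TGFBR3 and the signal carrier SMAD3 were lower, at -1.10 and -0.47. Of 21 notch, wnt and hedgehog regulators the wnt antagonist DKK1 was higher by 1.95 ± 0.29 (SE, limma adjusted p = 0.0108), and GAS1 and the hedgehog receptor PTCH1 were lower at -1.12 and -0.96. The calls of TGFBR3 and SMAD3 were lost with any 1 experiment left out, and without experiment 2 or 4 none of the TGF-beta list was called. Of the other list 1 member was higher and none lower without experiment 2 or 4.

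Genes of the cell cycle had positive medians in which experiment 3 stood apart. Their counts stand beside 5.63% of all genes called higher and 6.07% called lower. Among 31 G1/S and DNA replication genes 5 were higher and none was lower, with a median of 0.41, and among 38 mitosis genes 3 were higher and 1 was lower, with a median of 0.41 and 36 positive ratios. The medians in experiments 1 to 4 were 0.67, 0.43, -0.44 and 1.12 for the former and 0.73, 0.72, -0.47 and 0.79 for the latter. Without experiment 3 the higher counts were 8 and 17, and without experiment 1, 2 or 4 they were 0, 0 and 1 for the former and 0 each for the latter. Both medians were 0.05 without scaling. TYMS, the thymidylate synthase, gave 13.61, 13.43, 12.76 and 13.00 in irradiated cells, against 11.91 to 12.36 in the 4 controls. It was the one called member of these lists without overlap between the groups, at a ratio of 1.08 ± 0.25 (SE, limma adjusted p = 0.0478). CDC45, CDT1, RFC3 and RRM1 had ratios of 1.15, 0.89, 0.83 and 0.81. MAD2L1, of the spindle checkpoint, gave 11.64, 11.45, 9.91 and 11.24 against 10.37, 10.66, 9.64 and 9.66, which overlap, and had a ratio of 0.97 ± 0.23 (SE, limma adjusted p = 0.0536). BIRC5 and NUSAP1 were higher by 0.80 and 0.70, and the phosphatase CDC25B was lower at -0.70.

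FANCD2, of the Fanconi anaemia pathway, was higher by 1.41 ± 0.28 (SE, limma adjusted p = 0.0312). It was 1 of 2 higher among 23 DNA repair genes, beside 5.63% of all genes. The median of these repair genes, 0.32, turned to -0.04 without scaling. No member of this list was called without experiment 1, a single member without experiment 2 or 4 and 4 without experiment 3, and FANCD2 lost its call without experiment 1 only. Of 8 cyclin-dependent kinase inhibitors CDKN1A was higher and CDKN1C lower, at -0.97, a call lost with any 1 experiment left out. Of 49 replication-dependent histone genes 1 was called, H2AC19 at 0.54, likewise lost with any 1 experiment left out, and the median of 0.10 turned to -0.26 without scaling. The letters TTTGAA, the core of the cell cycle genes homology region, stood in 20 of 32 promoters of mitosis genes (62.5%), and in 15.4% of all promoters, 9.86% of those tested and 15.9% of those of genes called higher. The E2F site TTTCCCGC stood in 8 of 27 promoters of G1/S genes (29.6%), against 1.66% of all promoters.

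The genes with the largest decreases did not belong to a single pathway list. KCNK3, a two-pore potassium channel, had signals of 7.58, 7.27, 9.31 and 5.03 in irradiated cells against 9.58, 9.49, 11.53 and 11.14 in controls. The groups did not overlap, and the ratio was -3.14 ± 0.63 (SE, limma adjusted p = 0.0327), with -6.11 in experiment 4 and -1.99, -2.22 and -2.22 in experiments 1 to 3. ZFYVE9, the SARA protein that brings SMADs to the TGF-beta receptor, gave 5.58, 6.40, 6.52 and 4.79 against 7.63, 8.35, 10.38 and 7.99, without overlap, at -2.77 ± 0.37 (SE, limma adjusted p = 0.00651). The second probes of KCNK3 and ZFYVE9 gave smaller decreases, at -1.96 and -1.06, and were also called lower. RGMA, a BMP co-receptor and axon guidance molecule, gave 5.40, 5.45, 6.77 and 4.57 against 7.58, 7.20, 8.32 and 8.72, at -2.41 ± 0.39 (SE, limma adjusted p = 0.0146). Each irradiated value of RGMA was below each control. BRINP3, TAF5L, CDON, NKX3-2, PODN, TENM4 and TAF15 were lower, at -2.33 to -1.84, and none of them overlapped. CDON and PTCH1 are both receptors of hedgehog signals, NKX3-2 is a transcription factor of skeletal development, and TAF5L and TAF15 are parts of transcription complexes.

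For TAAR5, CDK5R2, MYH14 and BORCS8-MEF2B, which complete the 15 largest decreases with FKBP10, the groups overlapped and the ratios were nearest to 0 in experiment 2. TAAR5 had ratios of -4.20, -0.24, -1.70 and -4.93 in experiments 1 to 4, beside irradiated minus control 75th percentiles of -0.669, -0.00831, -0.221 and -0.541 before scaling. The part of brightness in these decreases was not tested. Without experiment 1 or 4 TAAR5, CDK5R2 and MYH14 did not pass. The second probes of CDK5R2 and MYH14 were at -0.04 and 0.09 and were not called. The strict filter drops a probe that was dim or uneven on any array at 6 h. It kept 10 of the 15 largest decreases and dropped TAAR5, CDON, NKX3-2, PODN and TAF5L. CDON, at 3.39 in irradiated cells of experiment 4, lay near the floor of 3.19.

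The 15 largest increases with the same sign in 4 experiments were CXCL8, MMP3, CLDN1, IL33, MMP1, IL6, GDF15, PTGS2, SLC16A6, ANXA10, NEFM, NAV3, PSG6, LOC284344 and DDIT4L. The strict filter kept 12 of them and dropped CLDN1, ANXA10 and LOC284344. CLDN1, a protein of tight junctions, had signals of 9.38, 9.35, 5.94 and 10.75 in irradiated cells against 5.25, 4.52, 4.18 and 8.39. The levels in experiment 4 were high in both groups, so the groups overlapped, while the ratio of 3.27 ± 0.51 (SE, limma adjusted p = 0.0135) was positive in each experiment. SLC16A6, a carrier of the monocarboxylate family, gave 10.88, 10.84, 9.04 and 10.33 against 7.17, 7.11, 7.64 and 7.73, at 2.86 ± 0.39 (SE, limma adjusted p = 0.00651). ANXA10, an annexin, gave 7.68, 7.77, 6.31 and 7.35 against 4.24, 4.59, 5.02 and 4.12, at 2.79 ± 0.35 (SE, limma adjusted p = 0.00577). Neither gene overlapped between the groups. NAV3, PSG6, LOC284344 and DDIT4L had ratios from 2.40 to 2.54 that were as low as 0.40, 0.62, 0.21 and 0.14 in experiment 3. PSG6 is a pregnancy-specific glycoprotein with near-identical relatives, and its probe may read these too. The second probe of NEFM, a neurofilament subunit, was at 0.01 and was not called.

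**Figure D3:**
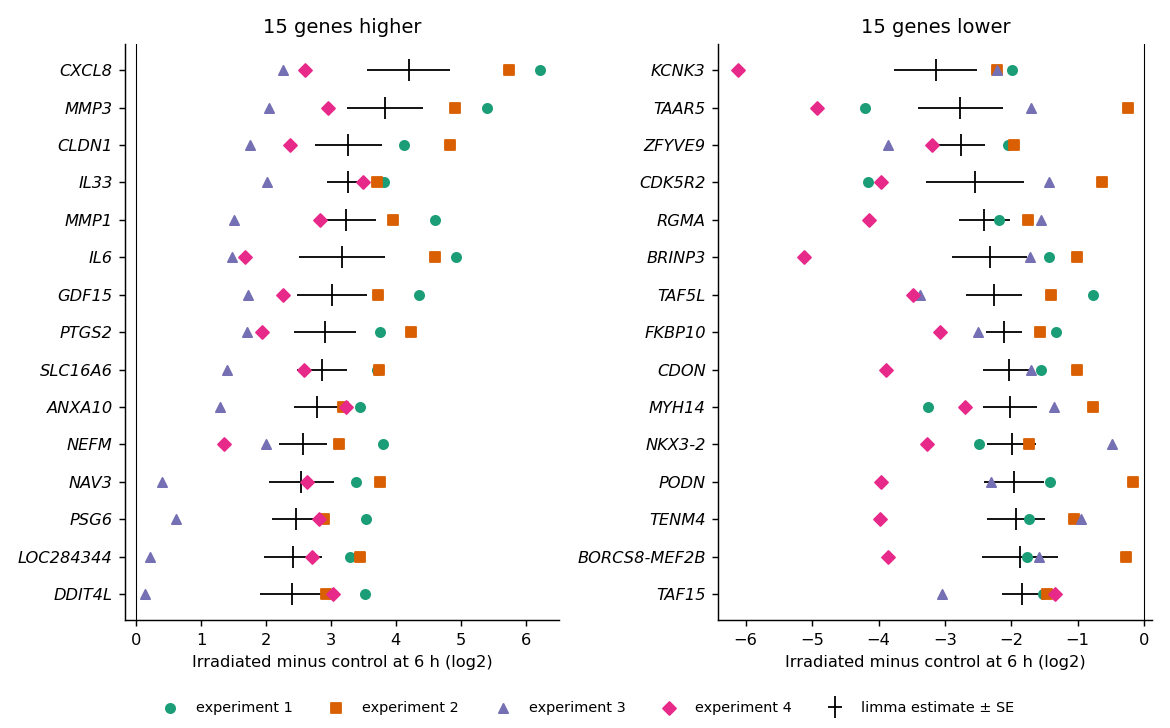
Ratio of irradiated to control signal at 6 h (horizontal axes, log2) in each of the 4 experiments for the 15 genes with the largest increases (left) and decreases (right), with the limma estimate and its SE. The genes were chosen to have the same sign in 4 of 4 experiments, and CXCL8 runs from 2.26 in experiment 3 to 6.22 in experiment 1.

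In the lists that follow, counts stand beside 5.63% of all genes called higher and 6.07% called lower. Of 22 sterol synthesis genes FDFT1 alone passed, at -0.68, a call lost without experiment 1 or 4. The median of the list was 0.20, or -0.16 without scaling. Among 10 polyamine genes ODC1 was higher by 1.43 and OAZ2 lower at -0.76, with a median of 0.17 that turned to -0.21 without scaling. The OAZ2 call was lost without experiment 2, 3 or 4. KCNK3 was the one call among 5 two-pore potassium channels. Of 23 ribosomal protein genes RPL3 was lower at -0.47, and the median was 0.00. RPL3 was called in 5 of 18 alternatives and in none of the fits with an experiment left out. None of 12 housekeeping genes passed, and their median was 0.05. None of 6 histone modifiers passed, with KDM5B at -0.41, HDAC1 at -0.18 and HDAC2 at 0.34. Of other genes that the study names MYC, E2F1, MTF1 and MYBL1 were not called, at 0.50, 0.65, 0.30 and 0.96, and the polyamine enzyme SAT1 was at 0.39. Over the 30 lists 142 of 614 genes were called, beside 1523 of all 13017. Without scaling, further lists had more lower than higher members by the same test, with 8 lower and 1 higher of the notch, wnt and hedgehog list, 7 and none of the histone list, 6 and 3 of the metalloproteinase list, 5 and 1 of the TGF-beta list and 4 and 1 of the oxidative stress list. The same counts were 3 and none of the sterol list, 3 and none of the ribosomal list, 2 and none of the mitosis list, 2 and none of the potassium channels, 2 and 1 of the ATF4 list, 2 and 1 of the cyclin-dependent kinase inhibitors and 1 and none of the histone modifiers. Of the marker lists, no epithelial or endothelial marker passed with scaling, CD68 was higher by 0.52 among the leukocyte markers (in 8 of 18 alternatives, and in none with an experiment left out), and DES was the one call among the smooth muscle markers, lost with any 1 experiment left out. Without scaling 2 of the 7 epithelial and 3 of the 7 smooth muscle markers were lower and none was higher, and no endothelial or leukocyte marker was called.

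**Figure D4:**
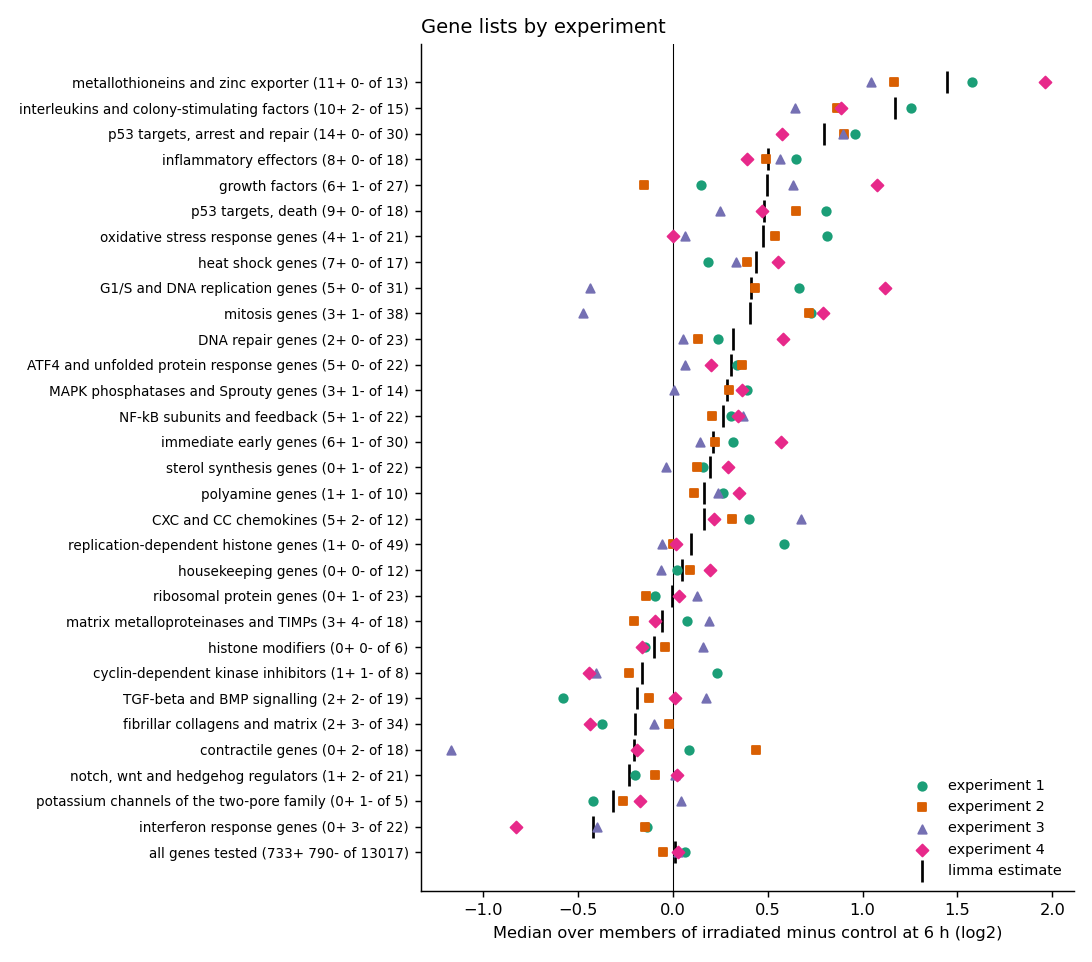
Median over the members of each of 30 gene lists of the ratio of irradiated to control signal at 6 h (horizontal axis, log2), by experiment (coloured symbols) and as the median of the limma estimates (black bars), with the numbers of members called higher (+) and lower (-) of those tested. The metallothioneins lie above 1 in every experiment, from 1.04 to 1.96, whereas mitosis and G1/S genes lie below 0 in experiment 3 alone, and all genes tested lie near 0.

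Irradiated cells were also compared directly with the bystander cells of the same dishes, which received no particles. In the fit of 12 arrays 0 of 25246 probes passed at a limma adjusted p below 0.10, and 383 had an unadjusted limma p below 0.05. The planned fits without scaling, without the replicate block and with an experiment left out also called 0 probes. The fit of the 8 irradiated and bystander arrays alone, chosen after seeing the data, called 5 probes, all higher in irradiated cells, with 1720 at an unadjusted p below 0.05. They belonged to FDXR, DDB2, VWCE, TNFRSF10C and BBC3. FDXR gave 13.26, 13.32, 13.57 and 12.47 in irradiated cells against 11.95, 11.80, 12.32 and 11.16 in bystander cells, a difference of 1.35 ± 0.10 (SE in the fit of 8 arrays, limma adjusted p = 0.028). DDB2 gave 13.18, 13.22, 13.31 and 12.19 against 11.98, 11.96, 12.04 and 10.89, a difference of 1.26 ± 0.09 (SE, limma adjusted p = 0.028). Both genes were low in experiment 4 in both groups, so that the difference within experiments was steadier than the levels. VWCE was higher by 1.19, TNFRSF10C by 1.41 and the pro-apoptotic BBC3 (PUMA) by 1.23, the latter on its dimmer probe, and the brightest probe of BBC3 did not pass against the controls, at -0.15.

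By unadjusted limma p below 0.05, 20 of the 30 p53 targets of arrest and repair and 7 of the 18 of cell death were higher in irradiated than in bystander cells and none was lower, beside 1.03% of all genes higher and 0.63% lower. None of these passes adjustment over all probes in the fit of 12 arrays. The median difference was 0.62 for the arrest list and 0.31 for the death list, against 0.03 over all genes. Among the interleukins, chemokines, inflammatory effectors and metallothioneins no member was past the same limit in the fit of 12 arrays, and the medians were 0.07, -0.01, 0.07 and 0.25. Of the mitosis genes 7 were lower than in bystander cells by that limit, namely CCNA2, CCNB1, CDC20, CDC25B, CENPA, KIF20A and NEK2, and none was higher, with a median of -0.42. The counts were larger in the fit of the 8 irradiated and bystander arrays, where 4.53% of all genes were higher and 3.01% lower at an unadjusted limma p below 0.05. There 26 of the 30 p53 targets of arrest and repair and 8 of the 18 of cell death were higher and none was lower, and 14 of the 38 mitosis genes were lower and none was higher. In that fit 7 of the 13 genes of the metallothioneins and their zinc exporter were higher, MT1A, MT1B, MT1E, MT1H, MT1L, MT1M and MT1X, and MT3 was lower. Of the interleukins IL11, IL12A and TSLP were higher, of the chemokines CXCL8 was higher and CX3CL1 lower, and of the 18 inflammatory effectors none was past the limit. Of the replication-dependent histone genes 10 of 49 were higher, as were 6 of the 22 ATF4 and unfolded protein response genes, and none of either list was lower. Of the genes of these lists in that fit only FDXR, DDB2 and TNFRSF10C passed adjustment on the probe that stands for the gene. CXCL8 was at 14.60, 14.86, 11.96 and 14.14 in irradiated cells and at 13.66, 14.70, 11.07 and 13.93 in bystander cells, higher in 4 of 4 experiments. The difference was 0.55, with an SE of 0.64 in the fit of 12 arrays and of 0.16 in the fit of 8 (limma adjusted p = 0.727 in the latter). IL6 differed by 0.45, with an SE of 0.67 and of 0.23 in these fits, and was past the unadjusted limit in neither. Irradiated and bystander cells share their controls, and side by side the ratios to these were 4.20 and 3.65 for CXCL8, 3.26 and 3.16 for IL33, 3.23 and 2.86 for MMP1, 3.02 and 1.69 for GDF15, 1.49 and 0.32 for CDKN1A, and 1.56 and 0.21 for FDXR.

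**Figure D5:**
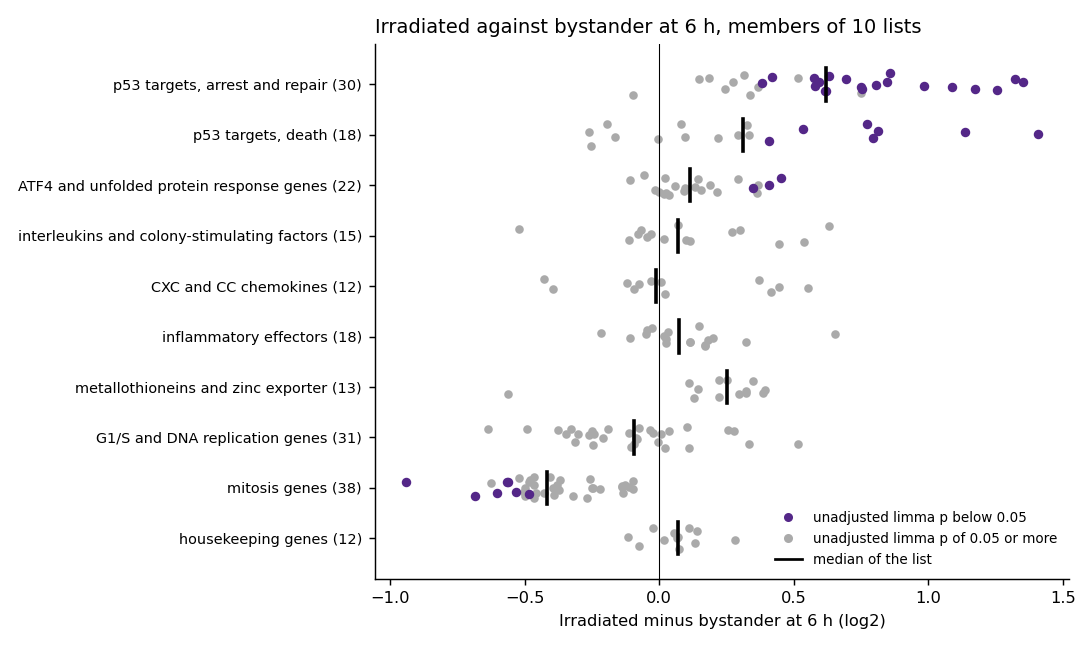
Difference between irradiated and bystander cells at 6 h (horizontal axis, log2) for every member tested of 10 gene lists, with the number tested in brackets, points in purple where the unadjusted limma p of the 12-array fit is below 0.05, and bars at the medians. The p53 targets of arrest and repair spread to the right, up to 1.35 for FDXR, whereas the interleukins, chemokines and metallothioneins spread around 0 or just above it.

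The same genes were looked at in the arrays of 4 h and 24 h, which have their own controls. At 4 h 1.08% of all genes were higher and 0.584% lower, and at 24 h 0.607% were higher and 0.584% lower. These calls were made at a limma adjusted p below 0.10 in a fit of 36 arrays. The shares at 6 h given above came from a separate fit of the arrays at 6 h alone, with its own spread. No share at 6 h from the fit of 36 arrays is given, so these shares do not compare the breadth of the response between times. Of the 15 largest increases at 6 h, 15 had positive ratios at 4 h and 11 were called, and 15 had positive ratios at 24 h and 5 were called. Of the 15 largest decreases 15 were negative at 4 h and 14 at 24 h, and 2 were called at each time. RGMA was lower at all 3 times, at -2.31, -2.41 and -1.89 in order of time, as was FKBP10 at -1.96, -2.12 and -2.10. CXCL8 had ratios of 3.06, 4.20 and 1.82, and GDF15 of 2.87, 3.02 and 1.18. The p53 targets of arrest and repair had medians of 0.79, 0.80 and 0.48, the metallothioneins of 1.98, 1.45 and 1.38, and the mitosis genes of -0.06, 0.41 and -0.35. In the test of the difference itself 0 probes differed between 6 h and 4 h in limma, with 698 at an unadjusted p below 0.05, and the counts were 0 in the fits without scaling, without the block or with an experiment left out. Between 6 h and 24 h 1 probe differed (0.00396%), with 909 at an unadjusted p below 0.05. It was that of PRSS35, a serine protease, at -0.42 at 6 h and -2.18 at 24 h, and it was not called without experiment 1, 2 or 4, without scaling or without the block.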

How the data were processed

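The scanner files held spot intensities that the authors deposited from Agilent Feature Extraction 9.1.3.1, with background subtracted (processed signal). A deposited table of log2 values, used as an alternative, matched the unscaled log2 signals within 1e-05 for all 335898 values compared. Spots of a probe were averaged, each array was scaled to its 75th percentile, and following the study's methods a probe was dropped if its spot was dim or uneven on over 10% of all 72 arrays, leaving 25246 of 41000 probes. Genes were named through RefSeq by accession (25398 probes), symbol (2510) or synonym (789), and 12303 probes had no name, of which the text names none. One probe stood for a gene, that with the highest mean signal.

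Ratios came from limma 3.58.1 in R 4.3.3 on the 12 arrays at 6 h, with an intensity trend, the experiment as a block and Benjamini-Hochberg adjustment. The fit takes a single spread for all groups, so the bystander arrays enter the SE of irradiated against control. The comparisons with 4 h and 24 h used 36 arrays. Dishes of an experiment came from 1 pool of cells per the methods, and irradiated and control arrays of the same number deviated together (r of 0.26 to 0.45 in 4 of 4 pairs). With the bystander arrays 10 of 12 pairs had r above 0.1. The exceptions were the bystander array of experiment 1 with the irradiated and the control array of its number (both r = 0.05), and irradiated array 1 had r = 0.68 with bystander array 2. The precision is limited by the 4 experiments. The fits and the motif search were tested on simulated data.

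The text names the 15 largest called changes each way with the same sign in 4 of 4 experiments, members of the gene lists, the called genes of the other comparisons and genes the study names. The members and the lists (30 pathway and 5 marker lists) were chosen with earlier results of these data known. Alternatives covered scaling, background correction, filters, blocks, the threshold and leaving out each experiment. Some genes are not reported here.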

Additional observations from a re-analysis of the deposited data

Results flagged for a closer look

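In 23 of the 256 groups of 4 arrays looked at for the named genes, 1 array stood apart from the other 3 by Dixon's limit which chance reaches in about 1 in 20 groups. Values are scaled log2 signals. The irradiated array of experiment 3 was the one apart for FOSB at 6.06, DUSP2 at 8.59, BMP2 at 8.57, BIRC5 at 11.85, CDC45 at 9.40, CDT1 at 10.11, PPP1R15A at 10.71, TXNRD1 at 10.86 and KDM5B at 12.91, and all but KDM5B were the lowest of their group. The irradiated array of experiment 4 was apart for PLK3 at 12.93, SKIL at 9.29 and MYC at 11.86, which were the highest of their group, and for BRINP3 at 5.45, CDON at 3.39, CDC25B at 10.54, TGFBR3 at 6.01 and PTCH1 at 6.26, which were the lowest. Among the controls, experiment 4 was apart for NAV3 at 9.28, CXCL3 at 8.395 and HBEGF at 8.25, experiment 2 for PODN at 6.82 and H2AC19 at 13.40, and experiment 3 for IL1B at 10.72.

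PRSS35 was the gene whose ratio differed between times by a test of the difference, with 6 h minus 24 h at 1.77 (log2, limma adjusted p = 0.0867).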

How the results depend on the processing

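The number of probes called, 2655 (1233 higher and 1422 lower), stayed within 1.5 times of these values under median centring, quantile normalization, normexp, the authors' table, the strict filter, no intensity trend and the slide as a fixed or random block. It was 4445 (284 higher and 4161 lower) without scaling. It was 434 (231 and 203) with no filter on dim probes, which tests more probes, and 605 (297 and 308) at a threshold of 0.05. With the 8 irradiated and control arrays alone, which leave fewer arrays to estimate the spread, it was 326 (189 and 137). Without the replicate block, so with the pairing of the experiments ignored, the number of probes called was 48 (38 and 10). With experiments 1 and 2 averaged, chosen after seeing the data, it was 1376 (569 and 807). Leaving out an experiment gave 208 to 1863 probes, 135 to 987 higher and 73 to 876 lower, the lowest without experiment 4. The 142 called members of the gene lists became 38 with no filter, 64 with 8 arrays, 72 at 0.05, 16 without the replicate block, 93 with experiments 1 and 2 averaged and 56 to 151 with an experiment left out. Irradiated against bystander cells, 0 probes were called by each planned fit and 5 with the 8 arrays alone, a fit also chosen after seeing the data. The 1 probe that differed between 6 h and 24 h became 0 without scaling, 0 without the replicate block and 0 to 2 with an experiment left out. The causes of these changes in count were not tested. The alternatives were run gene by gene for 117 called genes (the 15 largest changes each way, at most 4 called members of each list and the genes of the study and the other comparisons), not for every gene with a value in the text. Of these 117, 11 were called the same way under every alternative that tested them, namely ANXA10, ATF3, FAS, FDXR, GADD45A, MMP10, NEFM, PLK3, SLC16A6, TNFRSF10A and TNFRSF10B, and 0 reversed. Dim probes limit the smallest signals, since values near the floor of 3.19 have no order.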
